A study of Mus musculus with 5 samples.

Results

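The regions described here are places of RNA polymerase II (RNA Pol II) at a resolution of 100 bp in secondary mouse embryonic fibroblasts. Chromosomes 1 to 19 were divided into 24624245 bins of 100 bp, bins were selected on their RNA Pol II reads, at least 8 distinct reads each, and adjacent bins were joined. The rule took 63226 bins, which formed 20050 regions with a summed length of 6.32 Mb, or 0.257% of all bins. The summit of a region is its bin with the most reads. Because RNA Pol II reads chose the regions, their own counts, lengths and ratios are given as a description, without a test.

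The series holds 5 chromatin immunoprecipitation or extract libraries sequenced on the Solexa platform, 2 without an antibody, from whole cell extract (WCE), and 1 each with antibodies to RNA Pol II (8WG16), the transcription factor E2F4 and H3K27me3, a methylated form of histone H3. All came from the same kind of cell. Induced pluripotent cells with doxycycline-inducible Klf4, Sox2 and Oct4 and an Oct4-selectable cassette, derived with Wnt3a-conditioned medium, were injected into BDF2 blastocysts, and the chimeric embryos gave the fibroblasts at 13.5 dpc (days post coitum). Puromycin at 2 µg/ml for 48 hours selected the descendants of the injected cells, which grew in medium with 10% cosmic calf serum. The labels state no doxycycline treatment, no number of embryos and no number of cultures. The fibroblast label was not checked against marker genes, because no gene annotation of the build of the reads, mm8, was used here. No gene is named and no sequence is shown for the same reason.

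RNA Pol II transcribes the protein-coding genes and many noncoding genes. At many promoters it is recruited, starts and halts a short way downstream before it is released into the gene body, so chromatin immunoprecipitation commonly gives a sharp peak near the start of a gene and a lower, one-sided level along its body. Many mammalian promoters also start transcription in the opposite direction a short way upstream, which gives a second RNA Pol II peak. Antibody 8WG16 binds the repeats of the C-terminal domain of the largest subunit and prefers forms with little phosphorylation, which are more frequent near promoters than far into genes. E2F4 is a cell cycle regulator that binds mostly at promoters, and H3K27me3 is the mark of Polycomb repression.

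Distinct autosomal reads numbered 3111606 for RNA Pol II, 11226593 for WCE replicate 2, 417799 for WCE replicate 1, 1971874 for E2F4 and 9483163 for H3K27me3. The WCE libraries stood apart from each other. WCE replicate 2 had 40.2 reads per kb in the regions and 3.59 in sequence far from them, whereas WCE replicate 1 had 2.40 and 3.96 (densities throughout are per kb, for 10000000 distinct reads on the autosomes). WCE replicate 2 is the background because the comparison was set up with it, not because of these densities. The values of WCE replicate 1 stand beside the main results. Each antibody had 1 library, so every interval covers counting error only, and every test compares libraries or the sides of regions, not conditions.

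The regions were short, and together they held nearly as many RNA Pol II reads as the rest of the autosomes. Their median length was 200 bp (quartiles 100 and 400 bp), 5921 of them (29.5%) were a single bin, and 248 (1.24%) were longer than 1 kb. The summit had a median of 21 reads (quartiles 11 and 43, range 8 to 184), against a mean of 0.126 reads per bin over the chromosomes. Reads were kept once per position and strand, so a bin can hold at most 200, and the tallest summits lay near that limit. The regions held 49.4% of the RNA Pol II reads (95% interval 49.3 to 49.4), 2.54% of WCE replicate 2, 0.152% of WCE replicate 1, 15.9% of E2F4 and 1.01% of H3K27me3. Scaled by autosomal totals, RNA Pol II exceeded WCE replicate 2 by 19.4-fold in the regions (19.4 to 19.5), and the ratios of single regions had a median of 18.0 (quartiles 11.2 and 29.5). Against the shallow WCE replicate 1, which had 633 reads in the regions, the ratio was 326 (301 to 353). E2F4, which played no role in choosing the regions, had 6.28 times the WCE replicate 2 level there (6.25 to 6.31). H3K27me3 had 0.397 times that level (0.394 to 0.400). Against WCE replicate 1 the ratios were 105 (97.3 to 114) for E2F4 and 6.65 (6.15 to 7.20) for H3K27me3, so the direction for H3K27me3 turns with the extract. H3K27me3 density was 15.9 in the regions and 3.80 far from them, so only relative to WCE replicate 2 was it low there.

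Just inside the threshold, the 5549 bins with 8 reads had a ratio to WCE replicate 2 of 8.60. Just outside it, the 6981 bins with 7 reads had a ratio of 7.64, so the threshold falls on a slope and not at a gap. In 105 regions (0.524%) the ratio was under 3, and in 17 (0.0848%) it was under 1. There were 791 regions (3.95%) with 0 reads of WCE replicate 2.

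RNA Pol II reads thinned out in steps away from the regions. Sequence within 1 kb of a region accounted for 11.4% of the RNA Pol II reads, at 2.87 times WCE replicate 2. Sequence at 1 to 10 kb from a summit held 9.49%, at 0.757 times, and the remaining 91.5% of the genome held 29.7%, at 0.367 times. The density of RNA Pol II fell from 781 reads per kb in the regions to 44.4 within 1 kb, 5.35 at 1 to 10 kb and 1.32 elsewhere. Over the same places WCE replicate 2 went from 40.2 to 15.5, 7.07 and 3.59, so the extract also rose towards the regions.

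The 5 regions strongest over the extract were 200 to 800 bp long, beside a median of 200 bp over all regions. The highest lower limit of the ratio belonged to chromosome 4 from 116700301 to 116700800 (mm8 throughout), with 144 RNA Pol II reads, 0 in either WCE library, 6 of E2F4 and 5 of H3K27me3. The exact 95% interval of its ratio to WCE replicate 2 starts at 139. On chromosome 15 from 36553401 to 36553700 there were 118 RNA Pol II reads and 0 WCE reads, a lower limit of 114, with 7 reads of E2F4 and 1 of H3K27me3. The region on chromosome 11 from 87238901 to 87239700 had 510 RNA Pol II reads against 11 of WCE replicate 2, a ratio of 167 (92.7 to 337), 0 reads of WCE replicate 1, 20 of E2F4 and 3 of H3K27me3. On chromosome 2 from 167380101 to 167380300 there were 94 RNA Pol II reads, a lower limit of 90.1, and on chromosome 9 from 58380401 to 58380700 there were 90, a lower limit of 86.2. Both had 0 reads in each WCE library and 0 of H3K27me3, with 6 and 5 of E2F4. Of these 5 regions, the one on chromosome 2 was called one-sided by the test described below.

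The longest regions were of different kinds. Chromosome 19 held the longest, 6600 bp from 5839301 to 5845900, with 2362 RNA Pol II reads against 190 of WCE replicate 2, a ratio of 44.9 (38.7 to 52.3), 0 of WCE replicate 1, 48 of E2F4 and 64 of H3K27me3. A neighbour on the same chromosome from 5800401 to 5803900 had 1409 against 89, a ratio of 57.1 (46.1 to 71.6), with 0 reads of WCE replicate 1, 58 of E2F4 and 29 of H3K27me3. It also had the tallest summit of all regions, 184 reads. On chromosome 11 from 86395101 to 86399400, 1426 RNA Pol II reads stood against 139, a ratio of 37.0 (31.1 to 44.4), with 0 reads of WCE replicate 1, 21 of E2F4 and 41 of H3K27me3. On chromosome 17 from 33729101 to 33732300, 1306 stood against 120, a ratio of 39.3 (32.6 to 47.7), with 1 read of WCE replicate 1, 99 of E2F4 and 33 of H3K27me3. In these 4 regions RNA Pol II stayed above the threshold over several kb.

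The remaining one of the 5 longest was high in every deep library. On chromosome 17 from 39451201 to 39454800, 1322 RNA Pol II reads stood beside 4402 of WCE replicate 2, 13 of WCE replicate 1, 1710 of E2F4 and 4843 of H3K27me3, and the ratio was 1.08 (1.02 to 1.15). It also led the regions by WCE replicate 2 reads per kb, with 1223. Next came chromosome 17 from 39456101 to 39456900, with 408 RNA Pol II reads against 921 of WCE replicate 2, 3 of WCE replicate 1, 326 of E2F4 and 1166 of H3K27me3, and a ratio of 1.60 (1.42 to 1.80). The third was chromosome 11 from 108827801 to 108828200, with 75 against 302, 0 of WCE replicate 1, 118 of E2F4 and 392 of H3K27me3, and a ratio of 0.896 (0.686 to 1.16). These regions passed a rule on RNA Pol II reads alone, with ratios to WCE replicate 2 far under the median region's.

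Tails were first measured against the extract. Each region has 2 sides, from 1 to 10 kb left and right of the summit, in which bins of any region and the 200 bp beside them were left out. RNA Pol II exceeded WCE replicate 2 on 5784 of 40100 sides (14.4%; one-sided exact conditional binomial test, Benjamini-Hochberg adjusted p under 0.01). The same test called 0.682% of 260667 windows of 9 kb tiled over the same chromosomes. On the called sides RNA Pol II was 2.82 times WCE replicate 2 (2.81 to 2.83), against 1.11 times over all sides and 0.463 times over the tiled windows. Of the regions, 3922 (19.6%) had 1 called side, 931 (4.64%) had both, and 15197 (75.8%) had neither. Sides of neighbouring regions share sequence, so calls are not independent.

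The number of called sides depended on the background. Scaling the libraries on background bins, which moved the ratio of RNA Pol II to extract by 5.73-fold, gave 28252 called sides, and WCE replicate 1 alone, the shallow library, gave 1885.

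A comparison of the 2 sides of the same summit does not need that scale. The side with more plus-strand RNA Pol II reads was named the tail side, and the minus-strand reads, which had no part in that choice, were then compared between the sides in mirrored windows. A side could be named in 18898 regions, and 1152 had equal plus-strand reads. Over the 18898 regions the minus-strand reads numbered 294265 on the tail side and 129816 on the other, a ratio of 2.27 (2.25 to 2.28), and it lay between 1.87 and 2.69 on the 19 chromosomes. Both strands come from the same fragments and the same library, so this measures how far the 2 strands point the same way, not a replicate.

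Region by region, minus-strand reads were higher on the tail side in 3721 of 14152 tested regions (26.3%; two-sided exact binomial test, at least 10 minus-strand reads, Benjamini-Hochberg adjusted p under 0.01) and higher on the other side in 15. These 3721 are called one-sided below. Grid points every 20 kb under the same rules gave 14.3%, 2305 of 16158, and among the 6445 tested grid points with no summit within 20 kb it was 393 (6.10%). Tails pointed right in 1856 one-sided regions and left in 1865, so neither direction along the chromosomes prevailed. A tested region had a median of 22 minus-strand reads, which limits the calls to large differences.

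Neighbouring regions counted the same tail repeatedly. The 3721 one-sided regions fell into 2222 clusters of summits no more than 2 kb apart. In 861 clusters with several one-sided regions, the tails pointed the same way in 832 and both ways in 29. With only the tallest region of each cluster, 1770 of 7531 were called (23.5%). Of the 5163 regions with no other region within 10 kb, called isolated below, 2508 were tested. Among these, 465 (18.5%) were called towards the tail side and 4 against it, beside 26.3% of all tested regions and 14.3% of grid points. With p adjusted over isolated regions alone, 406 (16.2%) were called towards the tail side.

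The extract leaned to the same side, though less. Over the 18898 regions WCE replicate 2 had a tail side to other side ratio of 1.24 (1.24 to 1.25), above 1 on 19 of 19 chromosomes. In the one-sided regions it was 1.54 (1.53 to 1.55), beside 5.94 (5.85 to 6.02) for the minus-strand RNA Pol II reads that were used for the call. By the same test WCE replicate 2 itself was one-sided towards the RNA Pol II tail in 21.2% of 18875 regions and against it in 2.69%. It had a median of 154 reads in the 14152 regions tested for RNA Pol II. When the share expected of each side was taken from WCE replicate 2 instead of 0.5, 2063 regions were one-sided towards the tail and 34 against it. Those 2063 were 14.6% of the 14152 tested, beside 14.3% of grid points, which were tested at 0.5 only. WCE replicate 1 was one-sided towards the RNA Pol II tail in 0.516% of the 581 regions with enough reads and against it in 0. Its summed ratio was 0.973 (0.958 to 0.987) over all regions and 0.916 (0.884 to 0.948) in the one-sided ones.

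E2F4 reads were also more frequent on the tail side. The ratio was 1.34 (1.33 to 1.35) over all regions and 1.80 (1.77 to 1.83) in the one-sided ones, above 1 on all 19 chromosomes in both sets, and somewhat above that of WCE replicate 2. H3K27me3 had 0.978 (0.975 to 0.981) and 1.05 (1.04 to 1.05), and its chromosomes lay on both sides of 1. Among single regions, E2F4 was one-sided towards the tail in 2.48% and against it in 0.372%, whereas H3K27me3 was called in 7.7% towards and 8.57% against. The polymerase tail thus had a side in common with E2F4 and WCE replicate 2. In all isolated regions with a side these were close, at 1.27 for E2F4 and 1.24 for WCE replicate 2. H3K27me3 stayed near 1, and WCE replicate 1 was slightly lower on the tail side, at 0.973 over all regions and 0.916 in the one-sided ones.

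**Figure D1:**
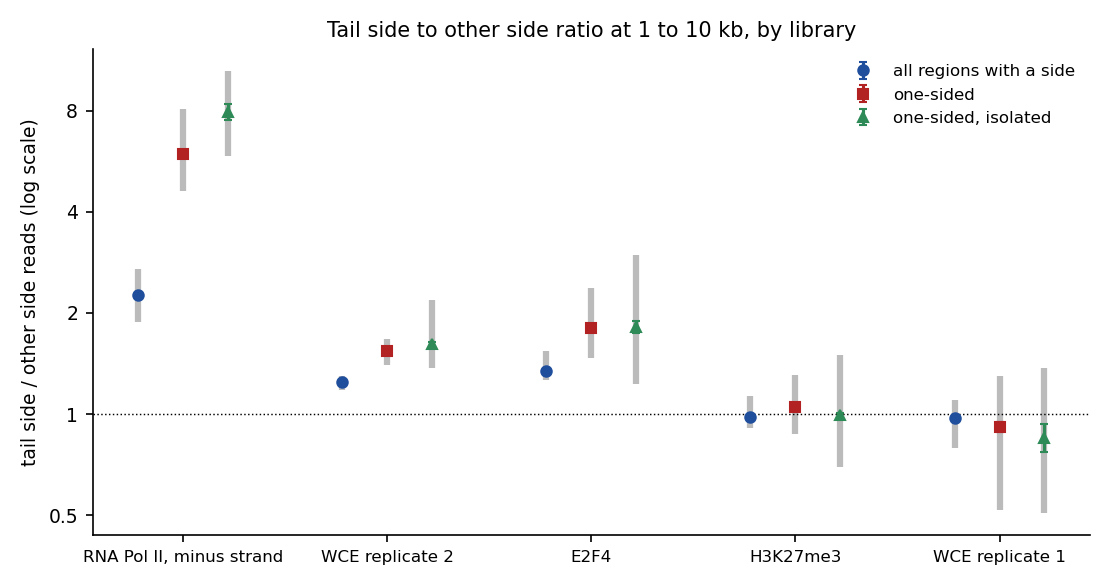
Reads at 1 to 10 kb on the tail side over those on the other side (log scale) for each library, in all regions with a side, in one-sided regions and in isolated one-sided regions. Points are ratios with 95% intervals and grey bars span the 19 chromosomes: minus-strand RNA Pol II reads lie at 2.27, 5.94 and 7.91, WCE replicate 2 and E2F4 lie between 1.24 and 1.82, H3K27me3 lies between 0.978 and 1.05, and WCE replicate 1 between 0.847 and 0.973.

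Along the tail, RNA Pol II declined slowly. In the one-sided regions the minus-strand density on the tail side was 20.8 reads per kb at 1 to 2 kb, 13.6 at 5 to 6 kb and 9.50 at 9 to 10 kb. On the other side it dropped from 5.13 at 1 to 2 kb to 1.86 at 5 to 6 kb and 1.73 at 9 to 10 kb. The ratio between the sides was 4.06 (3.92 to 4.20) in the first of these steps, 7.30 (6.96 to 7.66) at 5 to 6 kb and 5.48 (5.21 to 5.76) in the last. For WCE replicate 2 the ratio was nearly constant over the same steps, between 1.48 and 1.59. The call used these minus-strand reads, so the ratios in the one-sided regions are partly set by it. Over all 18898 regions with a side, called or not, the ratio was 1.92 (1.89 to 1.95) at 1 to 2 kb, 2.51 (2.46 to 2.57) at 5 to 6 kb and 2.14 (2.09 to 2.19) at 9 to 10 kb, beside 1.27, 1.24 and 1.21 for WCE replicate 2.

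Isolated one-sided regions, chosen by the same call, also had a slow decline. Their minus-strand tail density was 14.4 at 1 to 2 kb, 8.25 at 5 to 6 kb and 6.79 at 9 to 10 kb, and on the other side it was 2.32, 0.753 and 0.982. Over the whole window the ratio was 7.91 (7.49 to 8.36) for RNA Pol II, 1.61 (1.59 to 1.64) for WCE replicate 2, 1.82 (1.74 to 1.90) for E2F4, 0.991 (0.974 to 1.01) for H3K27me3 and 0.847 (0.770 to 0.932) for WCE replicate 1. In all isolated regions with a side, called or not, the minus-strand ratio lay between 1.93 and 2.30 in every step of 1 kb.

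**Figure D2:**
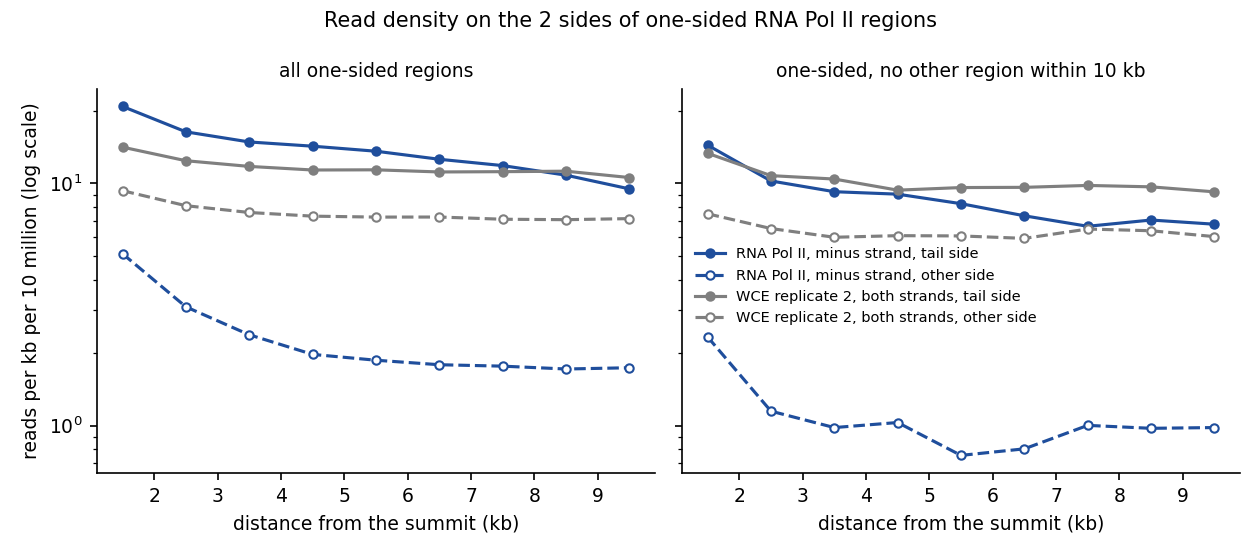
Read density (reads per kb per 10000000 distinct autosomal reads, log scale) against the distance from the summit in steps of 1 kb, for all one-sided regions and for the isolated ones. Filled points are the tail side and open points the other side: minus-strand RNA Pol II falls from 20.8 to 9.50 on the tail side of all one-sided regions and from 5.13 to 1.73 on the other, while both sides of WCE replicate 2 are nearly level beyond 3 kb.

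The heaviest tails came from few places. Among one-sided regions, 4 of the 5 with the largest surplus of minus-strand reads lay on chromosome 6 between 117134001 and 117148700, and their tails pointed towards each other over the same sequence. The same minus-strand reads chose these 5 regions and gave the p-values printed for them, so those p-values are a description and add no support. At the left end, the region from 117134001 to 117135100 had a summit of 148 reads and its tail to the right. Its minus-strand reads were 117 on the tail side and 11 on the other (two-sided exact binomial test, adjusted p = 6.15e-20), with 118 and 5 on the plus strand. In the same windows WCE replicate 2 had 103 and 81 reads, WCE replicate 1 had 3 and 2, E2F4 had 31 and 7, and H3K27me3 had 71 and 61. Its RNA Pol II tail had 21 to 40 reads per step of 1 kb from 1 to 9 kb, some steps with fewer usable bins, while the other side had 6 reads in the first step and at most 2 in each later one.

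At the right end, the region from 117148001 to 117148700 had a summit of 14 reads and 129 minus-strand reads to the left against 17 to the right (same exact test, adjusted p = 3.09e-19). There WCE replicate 2 had 108 and 60 reads, WCE replicate 1 had 2 and 2, E2F4 had 30 and 12, and H3K27me3 had 63 and 50. Between them, the regions from 117135901 to 117136000 and from 117147601 to 117147800 had summits of 8 reads each, with 110 against 15 and 124 against 21 minus-strand reads. Only the first of these 4 summits was tall, and the other 3 were low places within or at the edge of one long stretch of RNA Pol II.

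The remaining one of the 5 lay on chromosome 16 from 85690301 to 85692800, with a summit of 167 reads and its tail to the left. Minus-strand reads were 88 on the tail side and 2 on the other (same exact test, adjusted p = 6.15e-20), and plus-strand reads 95 and 4. The extract had 83 and 48 reads in replicate 2, WCE replicate 1 had 0 and 2, E2F4 had 11 and 5, and H3K27me3 had 27 and 22. RNA Pol II counts per kb were 31, 36, 26, 28, 32 and 19 from 3 to 9 kb on the tail side, against 0 to 2 on the other side.

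In most regions more RNA Pol II reads lay in the peak than on the tail side, which the rule helps to set. Tail windows left out bins of any region and the 200 bp beside them, so every tail bin had under 8 reads. The peak window left out none. The share of reads in the peak is the number within 500 bp of the summit over that number plus the reads at 1 to 10 kb on the tail side. Its median was 80.6% over the 18898 regions (quartiles 65.8 and 89.5, range 11.4 to 99.6), with medians of 100 peak reads and 24 tail-side reads. One-sided regions had a median of 63.9% and the others with a side 83.9%, a difference that the call itself helps to set. Isolated regions had 87.6%, and isolated one-sided regions 73.2%.

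The share rose with the summit, as its numerator makes it do, but tail density did not follow. Over 5 classes of summit height from 8 to 183 reads, the median share went from 65.3% to 71.0, 79.5, 86.1 and 89.9%. Tail-side reads per kb were 13.9, 13.1, 11.4, 10.3 and 11.9, and between 23.6% and 28.2% of the tested regions of each class were one-sided. Over the 4725 isolated regions with a side, peak reads and tail-side reads had a Spearman rho of 0.22. Peak reads and other-side reads had 0.18. These regions share 1 library, so the values are a description. Over all regions with a side, the class with the tallest summits thus had no denser tails than the class with the lowest. The classes include clustered regions, in which a low summit can lie along the tail of a taller neighbour, as on chromosome 6.

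E2F4 over the peak, which the share does not use, was lower where the peak held less of the reads. Among isolated regions with at least 50 peak reads, the 1166 with the lowest shares (24.8 to 86.6%) had 4.92 times as much E2F4 as WCE replicate 2 within 500 bp of the summit (4.85 to 4.99). The 1165 with middle shares had 6.23 times (6.15 to 6.31) and the 1166 with the highest shares (92.8 to 99.6%) 6.26 times (6.18 to 6.34). H3K27me3 had 0.486 (0.477 to 0.495), 0.440 (0.432 to 0.448) and 0.421 (0.414 to 0.429). Median peak reads were 98, 133 and 173 in these groups, so summit height moved with them and its part was not tested.

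**Figure D3:**
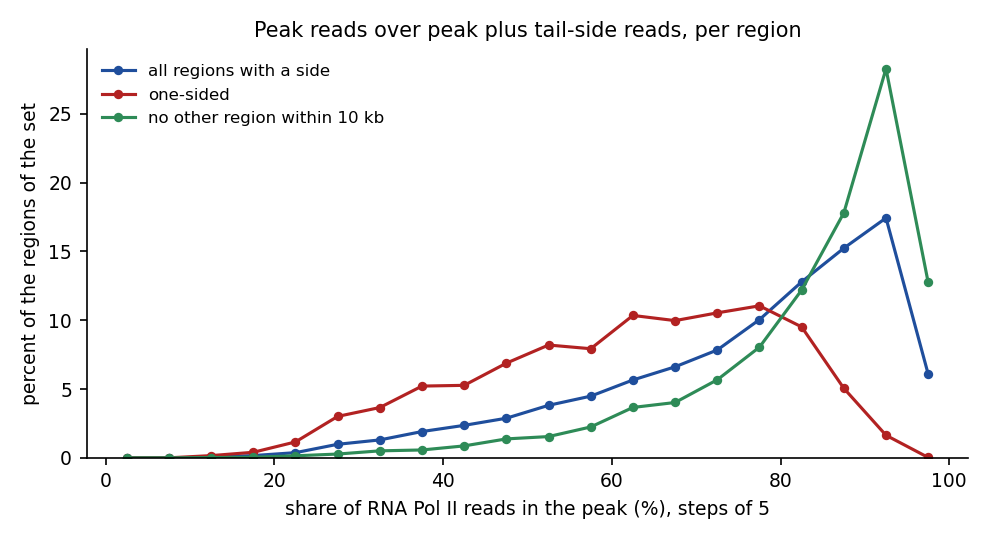
Distribution of the share of RNA Pol II reads in the peak (x axis, percent, steps of 5) as a percent of the regions of each set. All regions with a side have a median of 80.6%, one-sided regions of 63.9% and regions with no other region within 10 kb of 87.6%.

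The extremes of the share differed in their summits and in their tail-side reads. The highest was 99.6% on chromosome 18 from 57050701 to 57051300, with 261 peak reads, 1 read on the tail side and 4 on the other. Inside it were 254 RNA Pol II reads, 35 of WCE replicate 2, 0 of WCE replicate 1, 19 of E2F4 and 14 of H3K27me3. The next were 99.4% on chromosome 4 from 154252801 to 154253600, with 153 peak reads and 1 tail-side read, and 99.3% on chromosome 12 from 4831801 to 4832400, with 438 and 3. The lowest shares among regions with at least 50 peak reads were 15.8%, 17.9% and 18.6%, all on chromosome 6 in the stretch described above. There, 50 to 58 peak reads stood beside 219 to 266 on the tail side. Their summits had 8 to 11 reads, so these are low places along the tail and not tall peaks.

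Around the summit, RNA Pol II and E2F4 had different highest bins in the isolated one-sided regions, and the same highest bin in wider sets. In the 465 isolated one-sided regions, oriented with the tail to the right, minus-strand RNA Pol II density was highest at the summit bin, 725 reads per kb, with 384 and 368 in the bins 100 bp to either side. E2F4 was highest 100 bp away from the tail, at 296, with 266 at the summit and 174 at 100 bp towards the tail. WCE replicate 2 and H3K27me3 were highest at the summit bin, at 43.5 and 15.1, against 9.35 and 6.89 at 1500 to 2000 bp. WCE replicate 2 thus peaked at RNA Pol II summits too, at a much lower level. In all 4725 isolated regions with a side, E2F4 was highest at the summit bin, at 344. It was still uneven there, with 324 at 100 bp away from the tail and 252 at 100 bp towards it. The summit bin was also the highest for E2F4 in all 3721 one-sided regions (193 against 184 at 100 bp away from the tail) and in all 18898 with a side (240 against 213).

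Summed over 500 bp on each side in the isolated one-sided regions, E2F4 had 6279 reads away from the tail and 3997 towards it. The ratio was 1.57 (1.51 to 1.63). It was above 1 on 14 of 19 chromosomes, with a range of 0.554 to 3.07. Single regions were less uneven than the sum, with more E2F4 reads away from the tail in 263 and towards it in 171. WCE replicate 2 had 1.04 (1.01 to 1.08), H3K27me3 1.01 (0.959 to 1.06) and minus-strand RNA Pol II 1.02 (0.991 to 1.05). WCE replicate 1, with 56 and 41 reads, had 1.37 (0.897 to 2.10). In all 4725 isolated regions with a side, called or not, E2F4 had 1.21 (1.20 to 1.23), above 1 on 16 chromosomes. In that set WCE replicate 1, with 419 and 305 reads, leaned the same way, at 1.37 (1.18 to 1.60), and WCE replicate 2 did not, at 1.00 (0.994 to 1.02).

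The offset was not seen over all one-sided regions together. There E2F4 had 39920 reads away from the tail and 39598 towards it, a ratio of 1.01 (0.994 to 1.02), with 0.692 to 1.35 on single chromosomes. In these regions minus-strand RNA Pol II reads were themselves fewer away from the tail, with a ratio of 0.853 (0.845 to 0.861). With 1 region per cluster the E2F4 ratio was 1.42 (1.39 to 1.45). Over 1000 bp instead of 500 it was 0.903 (0.893 to 0.914) in all one-sided regions. In the isolated one-sided regions it was 1.46 (1.41 to 1.51) over 1000 bp, and in all isolated regions with a side 1.17 (1.15 to 1.18).

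**Figure D4:**
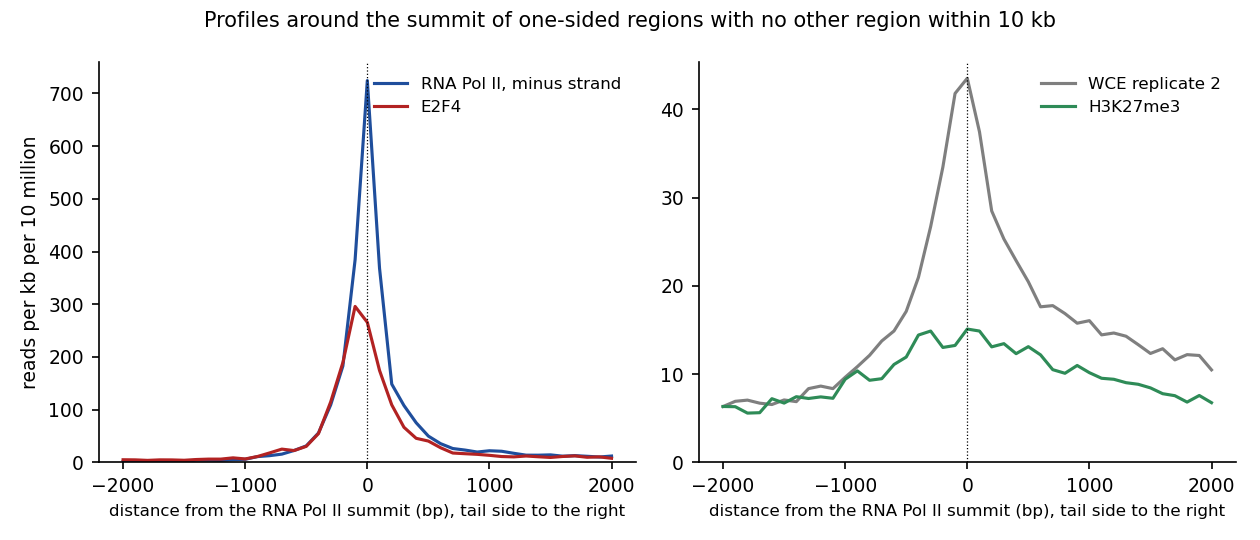
Read density (reads per kb per 10000000) within 2000 bp of the summit of the 465 isolated one-sided regions, with the tail to the right. Minus-strand RNA Pol II peaks at 0 with 725 and E2F4 at 100 bp to the left with 296, while WCE replicate 2 (43.5) and H3K27me3 (15.1) peak at 0 on their lower scale.

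Many summits came in pairs. The 20050 regions formed 11702 clusters of summits no more than 2 kb apart, of which 6752 (57.7%) held 1 region, 3172 (27.1%) held 2, 1039 (8.88%) held 3 and 739 (6.32%) held 4 or more, up to 31. Neighbouring summits within 2 kb made 8348 pairs, with a median distance of 400 bp (quartiles 300 and 700 bp). The most frequent distance was 300 bp, in 1801 pairs. In 2369 pairs (28.4%) both summits had at least 16 reads, and there the median distance was 500 bp. The lowest bin between the summits had a median of 20.7% of the lower summit (quartiles 7.89 and 40.0%). In 3719 pairs (44.5%) the regions were separated by 1 bin only, so some pairs are 1 broad peak with a bin under 8 reads.

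Few pairs had tails on both outer sides. Of the 3172 clusters of 2 regions, 415 (13.1%; 11.9 to 14.3) had RNA Pol II above WCE replicate 2 on 1 outer side and 64 (2.02%; 1.56 to 2.57) on both. Clusters of 1 region had 11.2% and 1.57% (1.29 to 1.90), and isolated regions 5.54% (4.93 to 6.20) and 0.213% (0.106 to 0.381). Where the taller summit had at least 20 reads, both outer sides were called in 1.35% (0.937 to 1.88) of pairs and 1.32% (1.01 to 1.69) of clusters of 1 region, so the share with both was not higher in pairs beyond its error. By the comparison of outer sides, 428 of 2017 tested pairs (21.2%) were one-sided and 1 was called against its plus-strand side. The shares given above were 14.3% of grid points, 26.3% of tested regions and 23.5% with 1 region per cluster. Among 418 one-sided pairs with unequal summits, the summit on the tail side was the taller in 201 (48.1%; 43.2 to 53.0). Summit height therefore did not tell which way the tail ran.

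Summed over pairs, E2F4 reads were as dense between RNA Pol II summits as at them. In the 2143 clusters of 2 regions with summits at least 400 bp apart, RNA Pol II had 694 reads per kb at the summits and 236 at the middle, a ratio of 0.340 (0.335 to 0.345) that the choice of separate regions helps to set. E2F4, which had no part in that choice, had 229 at the summits and 232 at the middle, a ratio of 1.02 (0.997 to 1.03), with 0.696 to 1.33 on single chromosomes and more than 1 on 9 of 19. WCE replicate 2 had 0.751 (0.735 to 0.768) and H3K27me3 0.722 (0.694 to 0.751), below 1 on every chromosome. The middle was the higher place for E2F4 in 721 pairs and the lower in 1373, counted on 1 or 2 bins at the middle and 6 at the summits. The corresponding numbers were 626 and 1469 for WCE replicate 2 and 604 and 1424 for H3K27me3. WCE replicate 1, with 47 reads at the middles and 105 at the summits, had 1.87 (1.30 to 2.67), above 1 on 13 chromosomes and so opposite to WCE replicate 2.

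In the 317 one-sided pairs of at least 400 bp, the summits had 796 RNA Pol II reads per kb on the far side and 739 on the tail side, with 232 at the middle. E2F4 had 221 and 189 at these summits, with a level between them at the middle. Its far summit exceeded its tail-side summit by 1.17-fold (1.12 to 1.22), on 11 of 19 chromosomes, and in 153 pairs against 145. Among the 274 pairs of 400 to 1000 bp, aligned on their midpoint, RNA Pol II was highest 200 bp to the far side (844) and 300 bp to the tail side (798) with 224 at the midpoint. E2F4 was highest 100 bp to the far side of the midpoint, at 244, with 231 at the midpoint itself.

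**Figure D5:**
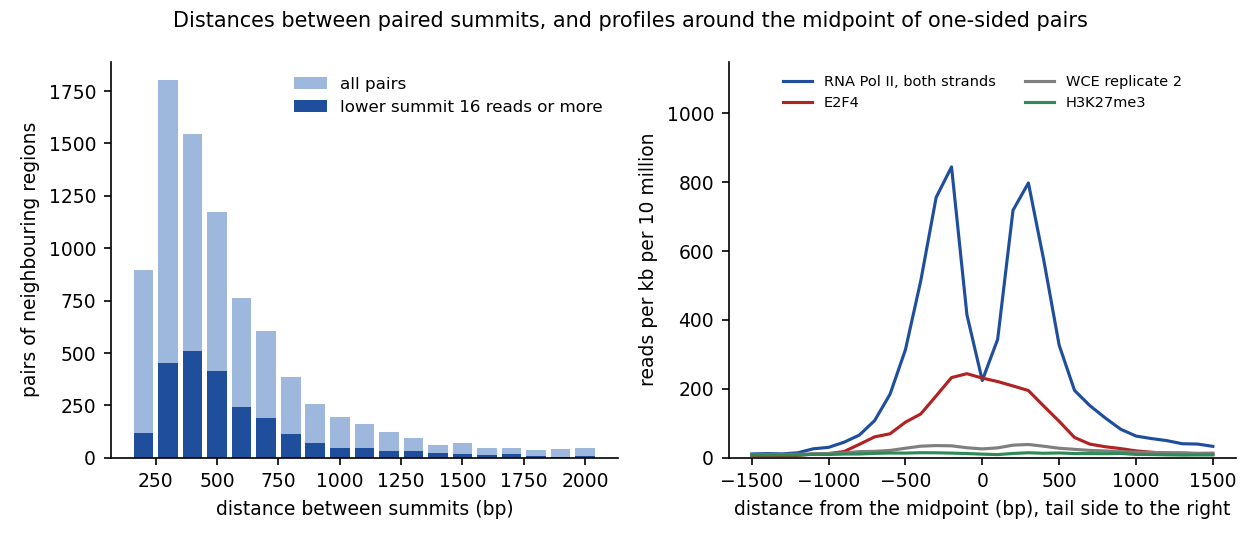
Left, number of pairs of neighbouring regions by the distance between their summits in bp, with the pairs whose lower summit has at least 16 reads in dark blue. Right, read density (reads per kb per 10000000) around the midpoint of 274 one-sided pairs of 400 to 1000 bp, tail to the right: RNA Pol II has peaks of 844 and 798 with 224 between them, and E2F4 has a single hump with 244 at its top.

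Single pairs varied in E2F4. The pair with the highest lower summit lay on chromosome 11, with regions from 120388701 to 120389000 and from 120389401 to 120389800. Its summit bins, 600 bp apart, had 133 and 99 RNA Pol II reads, and the lowest bin between had 2. E2F4 had 3 and 7 reads in the summit bins and 172 in the 5 bins between, a mean of 34.4 per bin. WCE replicate 2 had 2 and 10 in the summit bins and 27 between, WCE replicate 1 had 0 at all these places, and H3K27me3 had 0, 3 and 2. The right outer side was called over WCE replicate 2, with 115 RNA Pol II reads against 107 of the far deeper extract, and the left was not, with 39 against 118. RNA Pol II thus stood on either side of a block of E2F4, with a tail on 1 side.

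The other pairs had less E2F4 between the summits. On chromosome 17, summits of 141 and 94 reads lay 500 bp apart in regions from 87354901 to 87355300 and from 87355501 to 87355800. There E2F4 had 3, 9 and 24 reads at the left summit, the right summit and between, and WCE replicate 2 had 7, 11 and 14. On chromosome 12, summits of 110 and 93 reads 500 bp apart, in regions from 91995301 to 91995600 and from 91995701 to 91996600, had 9, 22 and 27 reads of E2F4. Another pair on chromosome 12, from 59929601 to 59930700 and from 59931101 to 59931700, had summits of 97 and 87 reads 1600 bp apart, and E2F4 had 2, 12 and 51 reads over 15 bins between. On chromosome 10, summits of 87 and 126 reads lay 1200 bp apart in regions from 127950201 to 127951100 and from 127951701 to 127952200, the lowest bin between had 0 RNA Pol II reads, and E2F4 had 2, 3 and 4. In these 4 pairs neither outer side was called.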

How the data were processed

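The authors deposited, for each of the 5 libraries, positions of aligned reads signed by strand, a unit of its own with no normalization. Alignment was to mm8 with bowtie, per the file headers, with -e 70, -k 2, -m 2, -n 2 and -l 26 (RNA Pol II, E2F4, WCE replicate 1) or -l 36 (WCE replicate 2, H3K27me3). Bowtie also stands in the submitters' processing notes, without a version. Whether positions count from 0 or 1 is not stated, so coordinates may be off by 1 bp.

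Here, reads of the first section (3545176 for RNA Pol II) were kept once per position and strand, 5′ ends were moved 60 bp downstream, and reads were counted in 100-bp bins and scaled by autosomal totals (python 3.11.15, numpy 2.4.6, scipy 1.17.1, pandas 2.3.3). Reads were amplified without molecular identifiers, so they are not independent molecules. Intervals are exact (Clopper-Pearson) at 95%. With 0 reads counted, shares up to 9.64e-05% of RNA Pol II reads and 0.000718% of those of WCE replicate 1 remain possible (3 counts). The named regions are the 5 whose ratio has the highest lower limit, the 5 longest, the 5 with the largest surplus of minus-strand tail reads, the 5 pairs with the highest lower summit, the 3 highest and 3 lowest shares in the peak, and the 3 richest in WCE replicate 2. Regions and lists were chosen with earlier results of these data known. Tests were checked on simulated data. Alternatives varied the threshold, shift, bins, repeats, background, windows and strand roles. Gene names and sequences need mm8 and were not used here.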

Additional observations from a re-analysis of the deposited data

Results flagged for a closer look

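Chromosome X, which the comparisons leave out, held 551 RNA Pol II regions by the same rule. They had 28930 RNA Pol II reads against 3660 of WCE replicate 2, a ratio of 28.5 (27.6 to 29.5) with the autosomal scale. These regions held 44.5% of the RNA Pol II reads of that chromosome. RNA Pol II reads chose them, so the values are a description, without a test.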

How the results depend on the processing

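Of 70 recomputed values for the 8 main results, 37 stayed close and 33 moved by more than their counting interval or by over 1.5-fold. The share of RNA Pol II reads in the regions was 52.6% with at least 6 reads per bin, 44.1% with at least 12, 49.0% with no shift and 53.7% with repeats kept. Called sides numbered 1885 against WCE replicate 1 and 28252 when scaled on background bins. One-sided regions numbered 2117 at 1 to 5 kb, 1488 at an adjusted p under 0.0001, 406 among isolated regions with p adjusted over these alone (465 with p adjusted over all), 2063 with the expected share from WCE replicate 2 and 1770 with 1 region per cluster (chosen after seeing the data, as were alternatives for named regions). The tail side to other side ratio was 2.10 with at least 6 reads, 2.46 with 12, 2.28 with no shift, 2.24 with repeats, 2.39 at 2 to 10 kb, 2.39 at 1 to 5 kb, 2.14 in isolated regions and 2.25 with 1 region per cluster. The median share in the peak was 78.8% with at least 6 reads, 82.6% with 12, 81.6% with repeats, 83.8% at 2 to 10 kb, 88.1% at 1 to 5 kb and 82.8% with 5 bins left out. The E2F4 ratio was 1.09 with at least 6 reads, 0.967 with 12, 1.06 with no shift, 1.04 with repeats, 1.04 with strand roles exchanged, 1.61 in those 406 isolated regions, 0.903 over 1 to 1000 bp and 1.42 with 1 region per cluster. The fewer regions or bases of an alternative set part of these moves; otherwise the cause was not tested. Counts of regions and of pairs stayed within 1.5-fold. No paired analysis was possible because each antibody had 1 library and the replicate number of the extract pairs it with none. No library could be left out of a group, except for the extract as given. Depth limits the shallow WCE replicate 1 and single tails.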

Other observations

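Regions were spread unevenly over the chromosomes. Chromosome 11 had the most per Mb, 15.9, and chromosome 1 the fewest, 5.09. The share of tested regions that were one-sided was lowest on chromosome 12, at 16.1%, and highest on chromosome 13, at 30.7%, and on the other 17 chromosomes it lay between 22.0% and 30.0%.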
